A study of Mus musculus with 4 samples.

Results

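Vip interneurons were taken as the nuclei of the mouse hippocampus that held GABA-synthesis transcripts together with transcripts of Vip, the gene for vasoactive intestinal peptide. A nucleus was a member when it had at least 500 genes and under 5% mitochondrial counts, at least 3 UMIs (unique molecular identifiers, each marking 1 captured transcript) of Gad1 and Gad2 together, and at least 2 UMIs of Vip. Its Vip count had also to exceed its counts of Sst, Pvalb and Lamp5, which mark other interneuron classes, and it could hold no more than 1 of 6 glial markers (Mobp, Mog, Prr5l, Gja1, Fgfr3 and Inpp5d). These limits chose 91 of 55295 nuclei, with 17 in WT replicate 1, 17 in WT replicate 2, 40 in KI replicate 1 and 17 in KI replicate 2. Because the members were selected on Gad1, Gad2, Vip and the absence of the other markers, the levels of those genes are given only as a description.

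The study profiled single nuclei from the frozen hippocampi of both hemispheres of C57BL/6N mice, with 2 wild-type (WT) mice and 2 littermates carrying a heterozygous knock-in of a Cyfip2 point mutation (KI), 1 library per mouse. Cyfip2 encodes a subunit of the WAVE regulatory complex, which controls branched actin, and the Cyfip2+/R87C mouse is a model of West syndrome, an infantile epilepsy. The knock-in is not limited to interneurons, and all mice were of the oldest age that the study sampled. One treatment label, that of KI replicate 2, reads R88C where its protocol reads R87C, and its genotype label decided the group. A transcript count at the 3' end does not distinguish the mutant from the normal allele, so Cyfip2 counts do not check the genotype labels. All 4 labels share 1 batch name. On the mm10 (GRCm38) genome Vip lies at chr10:5639218-5647617 on the plus strand, Adarb2 at chr13:8202866-8768747 on the plus strand and Cyfip2 at chr11:46193850-46312859 on the minus strand (GENCODE M21).

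Interneurons that make vasoactive intestinal peptide arise in the caudal ganglionic eminence of the embryonic brain, apart from the somatostatin and parvalbumin classes, which arise in the medial eminence. In the hippocampus they fall into types that contact other interneurons, often with calretinin (Calb2), and so disinhibit pyramidal cells, and into basket cells that contain cholecystokinin (Cck) and the cannabinoid receptor CB1 (Cnr1). They are known for dense input from neuromodulatory systems, through serotonin, acetylcholine and noradrenaline receptors.

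The 4 libraries held 12555 to 15981 nuclei past the limits and 72933401 to 80836416 UMIs. Counts of Malat1, a nuclear long RNA, accounted for 8.71% to 8.89% of all UMIs in WT and for 12.1% to 13.7% in KI. KI replicate 1 also stood apart by counts of the lipid carrier Apod, found in 35 of its 40 Vip interneurons against 3 or 4 of 17 in each other library. In its oligodendrocyte nuclei Apod stood at 2920 CPM (UMIs scaled to a common total of 1e6). Those of KI replicate 2 had 542 CPM, above the 391 and 294 CPM of WT replicates 1 and 2. Ptgds, the gene for prostaglandin D2 synthase, stood there at 693 and 639 CPM in WT and at 1957 and 1164 CPM in KI replicates 1 and 2. Of 55326 distinct barcodes, 313 occurred in more than 1 library. No barcode was shared between members (0), and 2 member barcodes also occurred in another library. The members' counts differed between the replicates of a genotype by more than counting noise, with a chi-square of 1.43 per degree of freedom for WT and 1.71 for KI.

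The 91 members had a median of 4 Vip UMIs, with 2 to 17 per nucleus and medians of 4, 4, 5 and 4 in WT replicates 1 and 2 and KI replicates 1 and 2. Adarb2, a gene related to RNA-editing enzymes that marks caudally derived interneurons and that the rule did not use, was found in 90 of the 91, with a median of 45 UMIs. The lowest counts in a member were 15 and 0 UMIs in WT replicates 1 and 2, and 1 and 6 in KI replicates 1 and 2. It was found in 40.7% of the 516 gated interneurons of the other classes. In oligodendrocyte nuclei Adarb2 stood at 510, 383, 342 and 593 CPM, against 14215, 12579, 10183 and 7750 CPM in the Vip interneurons of the same libraries. It was found in 38.6% to 51.9% of excitatory nuclei, at 222 to 422 CPM. The members were shallower than the other gated interneurons, with median UMIs of 5063, 5286, 5282 and 5710 against 6968, 7149, 8764 and 8010. Their depth did not separate the genotypes (exact permutation test of the library medians, p = 0.667).

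The Vip limit made a step in Adarb2 and the Gad limit did not. Just inside the Vip limit, 24 of 25 nuclei with 2 Vip UMIs held Adarb2, against 66 of 109 (60.6%) just outside it with 1 Vip UMI. Adarb2 was found in all 28 nuclei with 3 Gad UMIs, in 57 of 58 with 2, in 80 of 86 with 1 and in 95 of 125 with none. A further 14 nuclei were left out for glial markers, and all 14 held Adarb2. The Gad limit thus left out many nuclei that held both Vip and Adarb2.

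**Figure D1:**
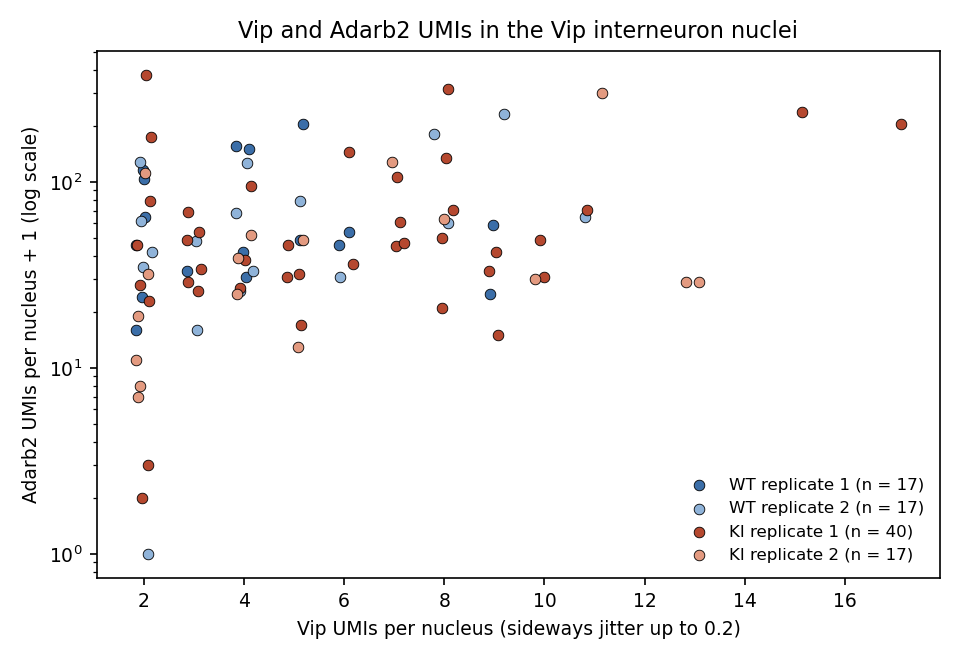
Vip interneuron nuclei by library, with 1 point per nucleus: Vip UMIs on the horizontal axis (with sideways jitter) and Adarb2 UMIs plus 1 on a vertical log axis. Adarb2, which was not used for the selection, was present with at least 1 UMI in 90 of the 91 nuclei, and KI replicate 1 held 40 of them.

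Vip interneurons made up a similar share of nuclei in 3 of the 4 libraries and a larger one in KI replicate 1. Their share of all nuclei was 0.106% in WT replicate 1, 0.129% in WT replicate 2, 0.319% in KI replicate 1 (95% exact binomial interval 0.228% to 0.434%) and 0.125% in KI replicate 2. The KI replicate 2 value lay between the WT values, so the genotypes overlapped (log2 KI over WT 0.91, exact two-sided permutation test, p = 0.667, where 2 against 2 cannot go below 0.33). Without KI replicate 1 the log2 ratio was 0.09. Of the interneurons that passed 1 of the 4 gates (Vip, Sst, Pvalb or Lamp5), Vip interneurons were 11.04%, 12.6%, 24.7% and 10.9%, and this ratio turned from a log2 of 0.59 to −0.12 without KI replicate 1. Intervals cover counting error only.

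The other gates are given beside this share. Sst interneurons stood at 0.532%, 0.547%, 0.669% and 0.706% of nuclei, Lamp5 interneurons at 0.244%, 0.251%, 0.199% and 0.265%, and Pvalb interneurons at 0.0813%, 0.0988%, 0.104% and 0.0515%. Vip counts outside interneurons also differed between libraries. Oligodendrocyte nuclei, which should lack the gene, held a Vip UMI in 2.48%, 3.66%, 7.34% and 7.01% of cases, at median depths of 2217, 2210.5, 2112 and 4416 UMIs against 5063 to 5710 in the members, and Vip stood there at 6.62, 9.56, 22.0 and 10.6 CPM. At least 2 Vip UMIs, the limit of the rule, occurred in 0, 0, 3 and 2 of these nuclei. The part of this background in the larger share of KI replicate 1 was not tested. When each nucleus was thinned to 3000 UMIs, 3, 8, 20 and 4 nuclei passed the gate, so KI replicate 1 was still highest. With at least 1 Gad UMI in place of 3, an alternative chosen after seeing the data, the shares were 0.294%, 0.274%, 0.733% and 0.441%, and both KI libraries lay above both WT libraries (exact permutation p = 0.33, the smallest the design allows).

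**Figure D2:**
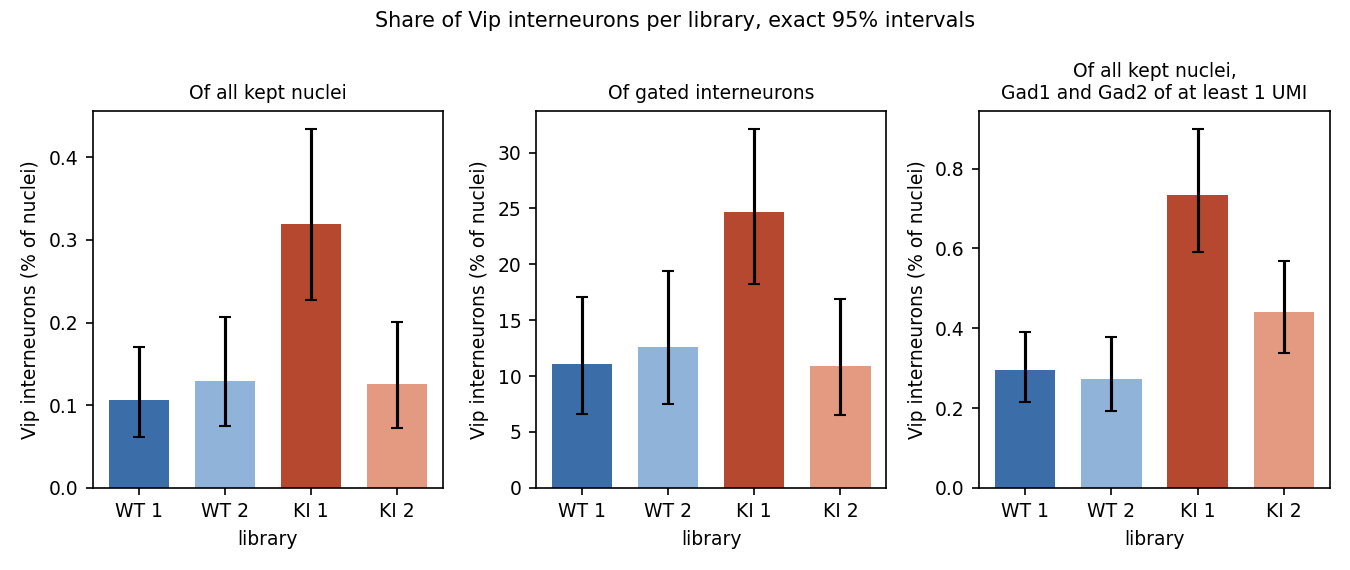
Share of Vip interneurons in each library (bars, with 95% exact binomial intervals), as a percent of all nuclei past the limits, of the gated interneurons, and of all nuclei when 1 Gad UMI was enough. Of all nuclei, KI replicate 1 stood at 0.319% and the 3 other libraries between 0.106% and 0.129%.

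Beside the genes of the rule, Vip interneurons differed widely from the 516 Sst, Pvalb and Lamp5 interneurons of the same libraries, which were gated without any Vip UMI. UMIs were summed per library and class and compared with edgeR's quasi-likelihood test, with library as a term and Benjamini-Hochberg adjustment over all genes tested. At an adjusted p under 0.05, 603 of 9307 genes were called (6.48%), with 260 at a higher level in Vip interneurons (2.79%) and 343 at a lower one (3.69%), and the median log2 difference over all genes was −0.03. All fold changes below are on this fitted log2 scale, and CPM is a level that also depends on a gene's length and is compared within a gene only. DESeq2 called 324. Malat1 was itself among the genes called lower, and made up 6.28%, 7.65%, 10.8% and 8.68% of the Vip interneurons' UMIs.

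Genes of caudal origin were higher in the Vip interneurons as a group. Of 26 listed genes 21 could be tested, 17 were called higher and 0 lower, and their median log2 difference was 1.40. Adarb2 had 14215, 12579, 10183 and 7750 CPM in the 4 libraries against 825 to 1539 CPM in the other interneurons, and no library of one class overlapped the other (log2 3.09 ± 0.13 SE, edgeR adjusted p = 1.58e-20). Prox1, a homeobox factor that caudally derived interneurons keep into adulthood, had 213, 238, 158 and 150 CPM against 26.3 to 59.4 (log2 2.32). Npas1, a basic helix-loop-helix repressor, had 154, 145, 48.2 and 125 CPM against 9.85 to 20.4 (log2 2.94).

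Other transcription factors of the lineage moved the same way. Npas3, a relative of Npas1, had a log2 difference of 1.68 and Nr2f2 (COUP-TFII) 1.40. Nr2f2 lost its call without WT replicate 1 (log2 1.11) or KI replicate 1 (1.41), and Dlx1 (1.24) lost it without WT replicate 1, KI replicate 1 or KI replicate 2 (1.01 to 1.28). Sp9, a zinc-finger factor of migrating interneurons, did not pass, with 4 UMIs in all, every one in KI replicate 1 (edgeR adjusted p = 0.251). Kit, a receptor tyrosine kinase, did not pass either, at 59.1, 82.7, 13.8 and 83.3 CPM.

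The genes that mark the comparison classes were lower. The list of medial-origin and neurogliaform markers had 11 members tested outside the rule, of which 9 were called lower and 0 higher, with a median log2 difference of −2.35. The comparison nuclei were gated on Sst, Pvalb and Lamp5, so this direction partly follows from how they were chosen. Lhx6, the factor that specifies medially derived interneurons, had 2 UMIs in all 91 Vip interneurons and 209 in the others, a ratio of 13.7 (95% counting interval 3.74 to 114). Reln, the secreted glycoprotein reelin, had 94.5, 124, 58.6 and 300 CPM against 500 to 615 (log2 −2.15), and Satb1, a chromatin organiser, 11.8, 93.0, 13.8 and 33.3 CPM against 117 to 200 (log2 −2.42). In both the Vip values varied several-fold between libraries yet stayed below every value of the other class.

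Neuropeptides differed between the classes in a few genes. Of 12 tested genes for peptides and their processing enzymes outside the rule, 4 were called higher, Tac2, Penk, Cck and the processing enzyme Pcsk2, and 0 lower. Npy, which was called lower, stood on the list of medial-origin markers. Tac2, which encodes neurokinin B, had 3, 2, 8 and 9 UMIs (35.4, 20.7, 27.6 and 75.0 CPM) against 0.928 to 3.28 CPM (log2 3.96 ± 0.68, edgeR adjusted p = 6.54e-05), and was found in 13 of the 91 nuclei. In KI replicate 2 a single nucleus held 8 of the 9 Tac2 UMIs. The granins Scg2, Chga and Chgb and the secretory peptide gene Vgf differed by −0.02 to 0.32 on the log2 scale and did not pass. Pcsk2 (log2 0.71) lost its call without WT replicate 1 (0.65) or KI replicate 1 (0.54).

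Penk, the gene for proenkephalin, had 1, 2, 17 and 7 UMIs in the Vip interneurons (11.8, 20.7, 58.6 and 58.3 CPM), so both KI libraries were above both WT libraries. The other interneurons showed the same split at a lower level, 0.928 and 1.04 CPM in WT against 11.9 and 11.5 CPM in KI, and over all nuclei the level was 4.96, 4.95, 17.7 and 16.9 CPM. Its counts were too low to be tested between genotypes in Vip interneurons. Between classes it was called higher in Vip interneurons (log2 2.41), but not without KI replicate 1 (2.61, edgeR adjusted p = 0.0733). The part of Penk RNA from other cells in these values was not tested.

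Cck was called higher in Vip than in other interneurons (log2 1.13), at a level near that of oligodendrocyte nuclei. It had 130, 82.7, 75.8 and 133 CPM in Vip interneurons and 104, 99.4, 66.2 and 61.6 CPM in oligodendrocyte nuclei, above them in every library but WT replicate 2. In KI replicate 2 a single nucleus held 12 of the 16 Cck UMIs. The gene was found in 36 of the 91 nuclei, and after thinning in 33.3%, 12.5%, 17.9% and 20%, beside 19.2%, 23.7%, 12.1% and 15.7% of the oligodendrocyte nuclei thinned alike. The thinned shares did not separate the genotypes (exact permutation test, p = 1). The call was also lost without KI replicate 1 (1.02) or KI replicate 2 (1.01). Single nuclei were not assigned to a cholecystokinin type.

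Calb2, the gene for calretinin, was above that background. It had 5, 3, 7 and 2 UMIs in the Vip interneurons, or 59.1, 31.0, 24.1 and 16.7 CPM, against 0.793 to 3.12 CPM in other interneurons (log2 4.14 ± 0.81, edgeR adjusted p = 0.000428). The highest oligodendrocyte value was 4.30 CPM. It was found in 13 of 91 nuclei (3, 3, 6 and 1 by library) against 7 of 516 others. In KI replicate 2 both UMIs came from 1 nucleus with a high doublet score (0.373). When all nuclei of high doublet score were left out, that library had 0 of 13 thinned nuclei with the gene. After thinning, the shares were 8.33%, 12.5%, 10.3% and 6.67%, with no separation of the genotypes (exact permutation test, p = 0.667). Both Calb2 and Cck were found in 4 nuclei, Calb2 alone in 9, Cck alone in 32 and neither in 46.

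A small number of nuclei held transcripts for acetylcholine use, which is known from a subset of Vip neurons in cortex. Slc5a7, the high-affinity choline transporter, had 4, 1, 7 and 3 UMIs in Vip interneurons and 1 UMI in the 516 others, a ratio of 115 (95% counting interval 17.6 to 4822), and every library contributed. Chat, the enzyme that makes acetylcholine, had 7 UMIs in 6 of the 91 nuclei and 0 UMIs in the others, at least 17.8-fold higher with 3 UMIs allowed over that class. Crh, the gene for corticotropin-releasing hormone, had 4 UMIs in 3 nuclei against 0, at least 10.2-fold higher. Sncg and Slc17a8, which mark cholecystokinin basket subtypes, were found in 0 and 1 nuclei. A count of 0 in 91 nuclei allows up to 3 UMIs, or 5.07 CPM, at this depth.

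The genes with the largest differences are given next. Sema5b, a semaphorin of axon guidance, had 13, 16, 36 and 19 UMIs, or 154, 165, 124 and 158 CPM, against 3.97 to 9.28 CPM (log2 4.37 ± 0.32, edgeR adjusted p = 4.17e-13). Rgs12, which speeds the switching-off of G proteins, had 99.9 to 196 CPM against 4.93 to 18.6 (log2 3.45), and Angpt1, an angiopoietin, 93.0 to 142 CPM against 2.08 to 16.7 (3.14). Tshr, the thyrotropin receptor, had 25.0 to 62.0 CPM against 0 to 2.79 (4.52). Cbln2, a secreted organiser of synapses, had 10.3 to 34.4 CPM against 0 to 1.86 (4.42). The others of this rank were Asic4, Megf10, St3gal1, A830012C17Rik and Gm39185, with log2 differences of 3.27 to 4.36, each of them with no overlap of the classes except Asic4, which had 0 UMIs in WT replicate 2.

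Among the genes that were lower, 5 had no UMI in any Vip interneuron. Ankfn1 had 0 against 224 UMIs and was at least 9.78-fold lower, with 3 UMIs allowed over the class. Gm49164, Cpa6, Lama4 (a laminin chain) and Gm45025 were at least 5.19, 4.50, 4.32 and 4.23-fold lower by the same measure. Eya4, a transcriptional coactivator, had 1 UMI against 207 (ratio 27.1, 95% counting interval 4.81 to 1076). Cpa6 lost its call without WT replicate 1 or KI replicate 1 (edgeR adjusted p = 0.0532 and 0.0811), and Zbtb7c, Klhl1 and Smc2, with 1 Vip-interneuron UMI each, lost theirs without KI replicate 1 (adjusted p 0.0705 to 0.181).

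**Figure D3:**
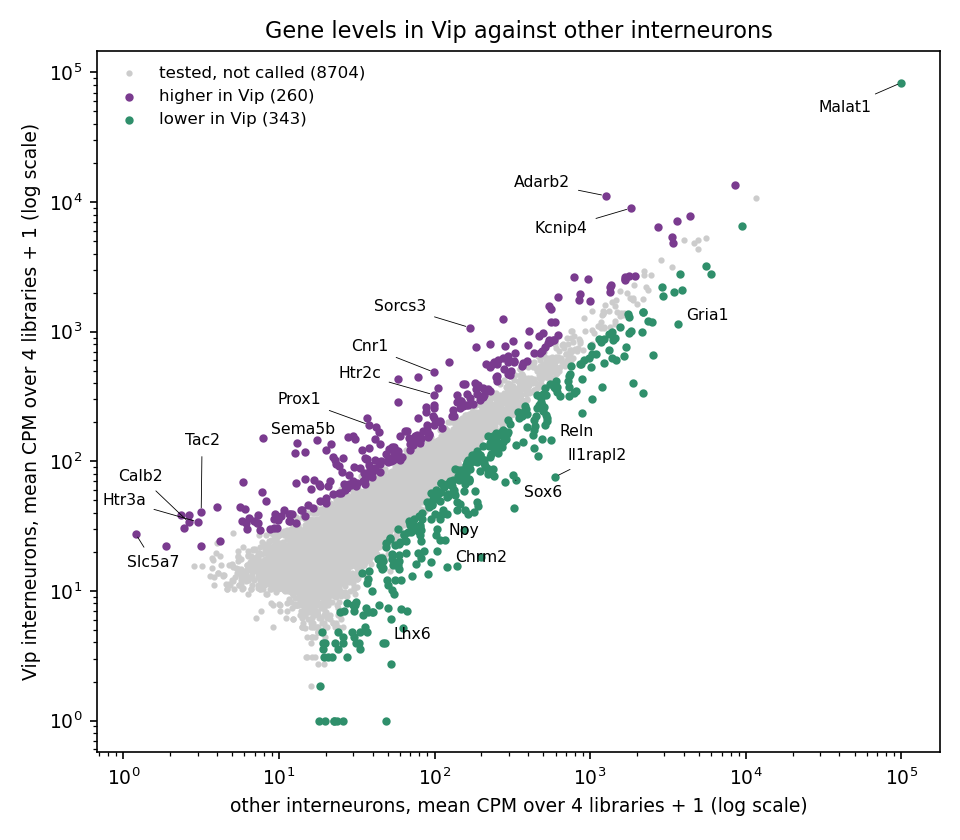
Mean CPM over the 4 libraries in Vip interneurons (vertical) against the other gated interneurons (horizontal), both as CPM plus 1 on log axes, 1 point per gene tested. Genes called higher (260) and lower (343) in Vip interneurons lie off the diagonal, with Adarb2 at a high level and Calb2, Tac2, Htr3a and Slc5a7 at low levels among the former.

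Receptors for neuromodulators differed in both directions. Of 15 tested, 7 were called higher and 5 lower, with a median log2 difference of 0.48. Cnr1, the presynaptic cannabinoid receptor, had 544, 496, 434 and 467 CPM against 78.8 to 129 (log2 2.26 ± 0.17, edgeR adjusted p = 7.46e-13) and was found in 76 of 91 nuclei, against 184 of 516 others. Htr3a, the ion-channel serotonin receptor that marks caudally derived interneurons, had 35.4, 41.3, 13.8 and 41.7 CPM against 0.821 to 2.79 (log2 3.75).

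Serotonin, noradrenaline and peptide receptors followed. Htr2c, a serotonin receptor coupled to Gq, had 508, 155, 310 and 325 CPM against 58.7 to 158, an overlap of 1 library pair at the edge (log2 1.72 ± 0.21). Htr2a, another Gq-coupled serotonin receptor, was lower, with 0, 31.0, 10.3 and 25.0 CPM against 42.6 to 73.9 (−1.82), a call lost without KI replicate 1 (−1.53) or KI replicate 2 (−1.90). Adra1b, an alpha-1 adrenergic receptor, had 213, 165, 89.6 and 108 CPM against 11.1 to 25.5 (log2 2.92), while Adra1a, its paralogue, was lower (log2 −1.05, lost without WT replicate 1 at −1.0 or KI replicate 1 at −0.75). The neuropeptide Y receptor Npy2r had a log2 difference of 2.56 and Npy1r 1.96, the latter lost without KI replicate 1 (1.90, edgeR adjusted p = 0.176). Npy itself, the gene for their ligand, was lower in Vip interneurons, with 16.7 to 31.0 CPM against 74.8 to 140 (log2 −2.35).

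Muscarinic and opioid receptors were called in both directions. Chrm2, the Gi-coupled muscarinic receptor, had 35.4, 10.3, 3.44 and 8.33 CPM against 57.5 to 154 (log2 −3.54 ± 0.42, edgeR adjusted p = 6.39e-08). Chrm3, the Gq-coupled one, was called higher by a small step (log2 0.48) that was lost without WT replicate 1, WT replicate 2 or KI replicate 2 (0.42 to 0.48). The opioid receptors Oprm1 (−1.02) and Oprd1 (−1.80) were called lower, and each call was lost without any of 3 single libraries (adjusted p 0.110 to 0.221). Of the receptors for VIP itself, Vipr1 had 1, 2, 3 and 1 UMIs and Vipr2 none in the Vip interneurons. Adcyap1r1, which prefers the related peptide PACAP, had 59.1, 20.7, 34.4 and 75.0 CPM and did not differ beyond its error (log2 −0.25 ± 0.33).

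Glutamate receptors were called in both directions. Of 21 tested, 6 were called higher and 9 lower. The AMPA subunits Gria1, Gria3 and Gria4 were lower, Gria1 with 945, 786, 1282 and 1542 CPM against 3293 to 4273 (log2 −1.77 ± 0.13, edgeR adjusted p = 1.31e-12), and Gria2 did not pass. Gria3 was lower than in Sst interneurons (−2.03) and did not pass against Lamp5 interneurons (−0.32). Grm5 (−1.14), a metabotropic receptor coupled to Gq, was lower. Grm8 (1.06) and Grm7 (0.70), presynaptic group III receptors coupled to Gi, were higher, Grm7 not without WT replicate 1 (0.51) or WT replicate 2 (0.52).

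NMDA receptor subunits also divided. Grin2a had 390, 630, 761 and 1250 CPM against 1335 to 1979 (log2 −1.24), and Grin3a was lower too (−1.24). Grin2b, the subunit that prevails early in development, had 1708 to 2245 CPM against 1241 to 1477 (0.52), lost without WT replicate 2 (0.47). Of 15 GABA receptor genes, 2 were called lower, Gabrg1 (−2.57) and Gabrg3 (−0.62). Gabrg3 was lower than in Lamp5 interneurons (−1.55), while its estimate against Sst interneurons was 0.40 and did not pass. Gabrg1 lost its call without KI replicate 1 (−2.64), and Gabrg3 without WT replicate 1 (−0.59) or KI replicate 1 (−0.36).

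Voltage-gated channels showed 7 genes higher and 9 lower of 41 tested. Kcnip4, which binds A-type potassium channels, had 8330, 9592, 8505 and 9433 CPM against 1609 to 1939 (log2 2.24 ± 0.11, edgeR adjusted p = 5.24e-18), and was found in all 91 nuclei. The potassium channel genes Kcnt2 (1.74), Kcnq5 (1.47) and Kcnb2 (0.92) were higher as well. Of the calcium channel subunits called lower, the P/Q-type pore subunit Cacna1a had a log2 difference of −0.84, Cacna2d1 −1.08 and Cacnb4 −1.0. Cacna2d1 turned with the class it was set against, being lower than in Lamp5 interneurons (−2.73) and higher than in Sst interneurons (0.73, edgeR adjusted p = 0.00956). In none of the channel genes named here did the Vip libraries overlap the other interneurons.

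Genes of synaptic adhesion and release had 4 calls higher and 5 lower of 38 tested. Nrxn3, a presynaptic neurexin, had 12744 to 14133 CPM against 7935 to 9071 (log2 0.60), and Cntnap2 5360 to 8531 against 3020 to 4052 (0.89). Il1rapl2, a postsynaptic adhesion gene, was lower at 51.7 to 130 CPM against 355 to 834 (−3.0), and so was Cntnap4 (−1.46). Sorcs3, a sorting receptor that activity induces, had 1205, 1209, 1016 and 867 CPM against 132 to 207 (log2 2.62 ± 0.16, edgeR adjusted p = 3.55e-15). It and the growth factor gene Igf1 (1.41) were the 2 genes of 15 tested that passed on the activity list. Early genes of that list such as Egr1, Junb and Nr4a1 were at 0 to 51.7 CPM and did not pass.

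Several groups held no called gene between the classes. Of the 14 genes of the WAVE complex and its partners 0 passed, with a median log2 difference of 0.12, and at an unadjusted p of 0.05 the count was also 0. Cyfip2 had 189, 145, 114 and 175 CPM in Vip interneurons against 150, 157, 132 and 122 CPM in the others (log2 0.04 ± 0.20). No gene passed among 36 of the respiratory chain, 45 of the cytosolic ribosome (4 at an unadjusted p of 0.05) or 11 chaperones with edgeR, so 0 calls in 3 lists, beside 6.48% over all genes.

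Markers of other cell types were present in the members. The 12 excitatory markers summed to 697, 1065, 847 and 958 CPM, against 517 to 902 CPM in the other interneurons and 1469 to 2157 CPM over all nuclei, and 0 of 6 tested passed. The 8 oligodendrocyte markers outside the rule summed to 591, 382, 699 and 425 CPM, above the 386, 253, 439 and 400 CPM of the other interneurons in every library, and 0 of 8 passed. The 8 astrocyte markers outside the rule summed to 555, 496, 410 and 300 CPM against 380, 286, 234 and 287. Of the 5 astrocyte markers tested Slc1a2, a glutamate transporter, passed (0.84), but not without WT replicate 2 (0.76) or KI replicate 1 (0.66). The 5 oligodendrocyte precursor markers summed to 1016, 930, 913 and 750 CPM, against 805, 764, 697 and 835 CPM over all nuclei. On that list Ptprz1, a receptor phosphatase, had 508 to 651 CPM against 108 to 148 (log2 2.16, edgeR adjusted p = 1.31e-12), while Vcan (−1.43) and Tnr (−0.82) were lower. Vcan lost its call without WT replicate 2, KI replicate 1 or KI replicate 2 (−1.66 to −1.02), and Tnr without KI replicate 2 (−0.60). The 8 microglia markers summed to 117 to 295 CPM, with the highest value in WT replicate 1 above that over all its nuclei (208 CPM), and the 9 vascular markers to 27.6 to 47.3 CPM. Scrublet, which scores nuclei that may hold 2 cells, gave 8 of the 91 members a score above 0.25, and 3 members had at least 2 UMIs of the excitatory marker Slc17a7.

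Against single classes the caudal genes held best against the Sst interneurons. Against the Sst class alone, 18 of 20 caudal genes were called higher (3.8% of all genes), and against the Lamp5 class, which is itself partly of caudal origin, 10 of 17 were higher (4.67%) and 2 lower (5.39%). Adarb2 (log2 1.73 against Lamp5, 4.36 against Sst), Prox1 (1.84 and 2.71), Cnr1 (1.73 and 2.45) and Npas1 (5.10 and 2.46) passed against each. Egfr, Erbb4 and Caln1 passed against Sst (4.45, 1.92 and 1.70) and not against Lamp5, where their estimates lay below 0 (−0.36, −0.22 and −0.22). Sox6 was lower than in Sst interneurons (−2.88) and did not pass against Lamp5 interneurons (0.69 ± 0.54). Other genes also depended on the class. Among them Grin3a, Il1rapl2, Cntnap2 and Npy passed against Sst (−1.68, −3.11, 1.11 and −2.72) and not against Lamp5 (0.27, −0.70, 0.41 and −1.10), and Grm7, Chrm3, Oprm1, Adra1a and Vcan passed against Lamp5 (2.27, 1.54, −1.77, −1.94 and −2.79) and not against Sst (0.28, 0.13, −0.65, −0.61 and −0.34). Dlx1, Npy1r and Slc1a2 passed against Sst (1.42, 2.24 and 0.99) and not against Lamp5 (0.66, 1.30 and 0.53). Kit was lower than in Lamp5 interneurons (−1.08) and higher than in Sst interneurons (2.36). These 2 comparisons share the Vip interneurons.

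Between genotypes no gene of the Vip interneurons passed the test. With edgeR on the summed counts of 2 KI and 2 WT libraries, 2014 genes had enough counts and 0 were called (0%), with a smallest adjusted p of 0.280, while 226 (11.2%) had an unadjusted p under 0.05, 112 higher and 114 lower. DESeq2 called 0 as well. The median log2 ratio was 0.01, and both KI libraries lay above both WT libraries in 362 genes (18%) and below in 491 (24.4%). The summed depth was uneven, with 84631, 96752, 290290 and 120001 UMIs. Leaving out 1 library gave 7 calls (WT replicate 1), 9 (WT replicate 2), 20 (KI replicate 1) and 34 (KI replicate 2), but each such fit has 1 library in an arm, which is assumed to vary like the other group.

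The genes with the smallest p that separated the genotypes are given as values, since none passed. Dlx1as, an RNA antisense to the interneuron factor Dlx1, had 366 and 455 CPM in WT against 124 and 75.0 in KI (log2 −1.89 ± 0.32, edgeR adjusted p = 0.280). Dlx6os1, a long noncoding RNA of the Dlx5 and Dlx6 locus, had 969 and 744 CPM against 365 and 417 (−1.09). Whether the counting used strand was not given in the sources used here, so reads of these RNAs and of the Dlx genes that overlap them cannot be told apart. Qrfpr, a peptide receptor, had 213 and 145 CPM in WT against 34.4 and 33.3 in KI (−2.30). Zfp536, a zinc-finger repressor, had 1335 and 1158 against 630 and 675 (−0.89), and Rsbn1 130 and 114 against 27.6 and 16.7 (−2.25).

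On the higher side, Unc5d, a netrin receptor, had 213 and 238 CPM in WT and 627 and 517 in KI (log2 1.40 ± 0.27, edgeR adjusted p = 0.280). Pex5l, which binds HCN channels, had 165 and 93.0 CPM against 362 and 467 (1.72), but its estimate was −0.24 when 1 Gad UMI was enough for a member. Zfpm2, a cofactor of GATA proteins, had 106 and 103 against 276 and 492 (1.85), and Napg, a factor of vesicle fusion, 23.6 and 51.7 against 155 and 175 (2.10). Tafa1, a secreted protein, had 130 and 238 against 451 and 633 (1.56). Without the 8 nuclei of high doublet score Tafa1 stood at 0.65 and KI replicate 1 (159 CPM) lay below WT replicate 2 (238 CPM), and Pex5l stood at 0.99.

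Lists were set beside the same counts over all genes. Of the 13 caudal genes with enough counts 10 had negative and 3 positive ratios, with a median of −0.25 and both KI libraries below both WT libraries in 8 (24.4% over all genes). Summed over the list, the WT libraries stood at 37209 and 33529 CPM against 26994 and 27900 for KI, and in the other interneurons 13013 and 13885 against 11416 and 11070 CPM, so that the KI values lay below the WT values in both classes, a difference that was not tested. Adarb2 made up much of that sum (log2 −0.53, unadjusted p = 0.00814 and adjusted p = 0.352 with edgeR). Over all nuclei the same list stood at 5254 and 4848 CPM in WT against 4766 and 4775 CPM in KI. Of 6 chaperones 5 had both KI libraries below both WT libraries, with a median of −0.64, among them Hsp90aa1 at 236 and 217 CPM in WT and 107 and 108 in KI (edgeR adjusted p = 0.352). In the other interneurons Hsp90aa1 was found in 98 of 137 and 67 of 118 WT nuclei and in 65 of 122 and 68 of 139 KI nuclei. When the genotype ratio was compared between the classes, as below, 0 of 11 chaperones were called, with a median difference of 0.39. Beside them, the summed ribosomal genes stood at 2151 and 1809 CPM in WT against 1512 and 1658 in KI Vip interneurons, and at 2306 and 1900 against 1738 and 1812 over all nuclei. The respiratory chain genes stood at 1962 and 1860 against 1612 and 1633 in Vip interneurons, and at 1948 and 1714 against 1590 and 1695 over all nuclei. The part of such shifts in the list values was not tested.

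Of 19 glutamate receptor genes 12 were positive and 7 negative, with a median of 0.21, beside 1026 positive and 988 negative and a median of 0.01 over all genes. Gria1 had 945 and 786 CPM in WT against 1282 and 1542 in KI (log2 0.75, edgeR adjusted p = 0.319), and Grm3 35.4 and 51.7 against 114 and 100 (1.34). Of 11 GABA receptor genes 8 were positive, with a median of 0.26 and 6 with both KI libraries higher (18% over all genes). Of 7 WAVE genes with enough counts 3 were positive and 4 negative, with a median of −0.0030, and Cyfip2 had a log2 ratio of −0.23 ± 0.37 (edgeR adjusted p = 0.881). Channels (29 genes, median 0.04) and synaptic genes (25 genes, median 0.07) lay near the median of all genes. None of these members passed.

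Whether the genotype ratio in Vip interneurons differed from that in the other interneurons was tested as a class-by-genotype term in 1 model over both classes, with library as a term since each mouse gave both classes. Of 9314 genes 10 were called (0.107%), 7 with a higher KI over WT ratio in Vip interneurons (0.0752%) and 3 with a lower one (0.0322%), and with DESeq2 the count was 0. At an unadjusted p of 0.05 the count was 488, and the median over all genes was 0.07. Dab1 and Grin2a fell outside the naming rule and were added after their values were seen.

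The 3 lower genes differed in how they arose. Brinp3, a neuronal membrane-associated protein, had 544 and 692 CPM in WT against 424 and 550 in KI Vip interneurons, and 218 and 292 against 515 and 677 in the others (difference −1.57 ± 0.28, edgeR adjusted p = 0.00605). Grm7 had 2588 and 2212 CPM in WT and 1812 and 2167 in KI Vip interneurons, and 1026 and 886 against 1476 and 1959 in the others (−1.11). In both the larger part of the difference thus lay in the other interneurons. Cntn4, a contactin of axonal adhesion, had 886 and 1333 against 658 and 708 in the Vip class and 432 and 524 against 671 and 765 in the others (−1.27), so both classes contributed. The other interneurons pool Sst, Pvalb and Lamp5 nuclei, and their mix differed between libraries. Sst nuclei gave 631501 of 1077075 and 578109 of 962917 UMIs in WT, and 858758 of 1260755 and 853475 of 1217811 in KI. Against Lamp5 interneurons the Vip class differed by 2.08 in Brinp3, 2.27 in Grm7 and 0.74 in Cntn4. Against Sst interneurons the differences were −0.07, 0.28 and 0.51. The part of the mix in these and the following differences was not tested.

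Among the 7 higher genes, Unc5d (difference 1.58), Zfpm2 (1.91) and Sgcz (1.62) had their larger part in the Vip interneurons. In the other interneurons Unc5d had 2099 and 1976 CPM in WT against 1776 and 1681 in KI, and Zfpm2 538 and 504 against 458 and 500. Sgcz, a sarcoglycan, had 130 and 568 CPM in WT and 1202 and 750 in KI Vip interneurons, and its call was lost without WT replicate 1 (0.77) or KI replicate 1 (1.11). Grin2a (1.31) had 390 and 630 against 761 and 1250 in Vip interneurons and 1868 and 1979 against 1335 and 1636 in the others, so the gap between the classes was smaller in KI. Dab1, the adaptor of reelin signalling, had 1170 and 1313 against 1681 and 1642 in Vip interneurons and 1233 and 1291 against 699 and 882 in the others (1.11). Glis3, a Krüppel-like zinc-finger factor, had 47.3 and 20.7 CPM in WT against 99.9 and 66.7 in KI Vip interneurons, from 4, 2, 29 and 8 UMIs, and 78.0 and 49.8 against 15.9 and 30.4 in the others (2.94). Its log2 ratio was 1.29 in the Vip class and −1.47 in the others. Unc5d, Zfpm2, Sgcz and Grin2a were higher in the other interneurons than in Vip interneurons, and Tafa1, Dab1 and Glis3 were not. Mean CPM of the former were 1883, 500, 2528 and 1704.5 against 399, 244, 663 and 758. Members with 2 Vip UMIs had Adarb2 counts as low as 0 in WT replicate 2, 1 and 2 in KI replicate 1, and 6 and 7 in KI replicate 2. The part of nuclei of other classes in these differences was not tested.

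Tafa1 (1.79) depended on nuclei with high doublet scores, which were left out of both classes together, so that the other interneurons went from 137, 118, 122 and 139 nuclei to 128, 106, 117 and 131. With the 8 such members Tafa1 had 131 UMIs in KI replicate 1 and 76 in KI replicate 2, and without them 38 and 49, its levels were 123, 238, 159 and 462 CPM, and the difference was 0.11 (edgeR adjusted p = 1.0). Grin2a (0.89) and Dab1 (1.0, close to its value above) also lost their calls in this setting (adjusted p = 0.434 and 0.0753). Of the 10 genes, Brinp3 alone kept its call when any single library was left out. Without WT replicate 1 the calls of Glis3 (3.28), Zfpm2 (1.88), Tafa1 (1.31), Sgcz (0.77), Unc5d (1.46), Grm7 (−1.11), Dab1 (1.06) and Grin2a (1.04) were lost. Without WT replicate 2 Glis3 (2.72), Zfpm2 (1.91), Cntn4 (−1.13) and Dab1 (1.14) were lost, without KI replicate 1 Glis3 (2.01), Sgcz (1.11), Unc5d (1.43) and Dab1 (0.88), and without KI replicate 2 Zfpm2 (1.61), Cntn4 (−1.20), Grm7 (−1.0) and Grin2a (1.14). None of these estimates changed sign.

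**Figure D4:**
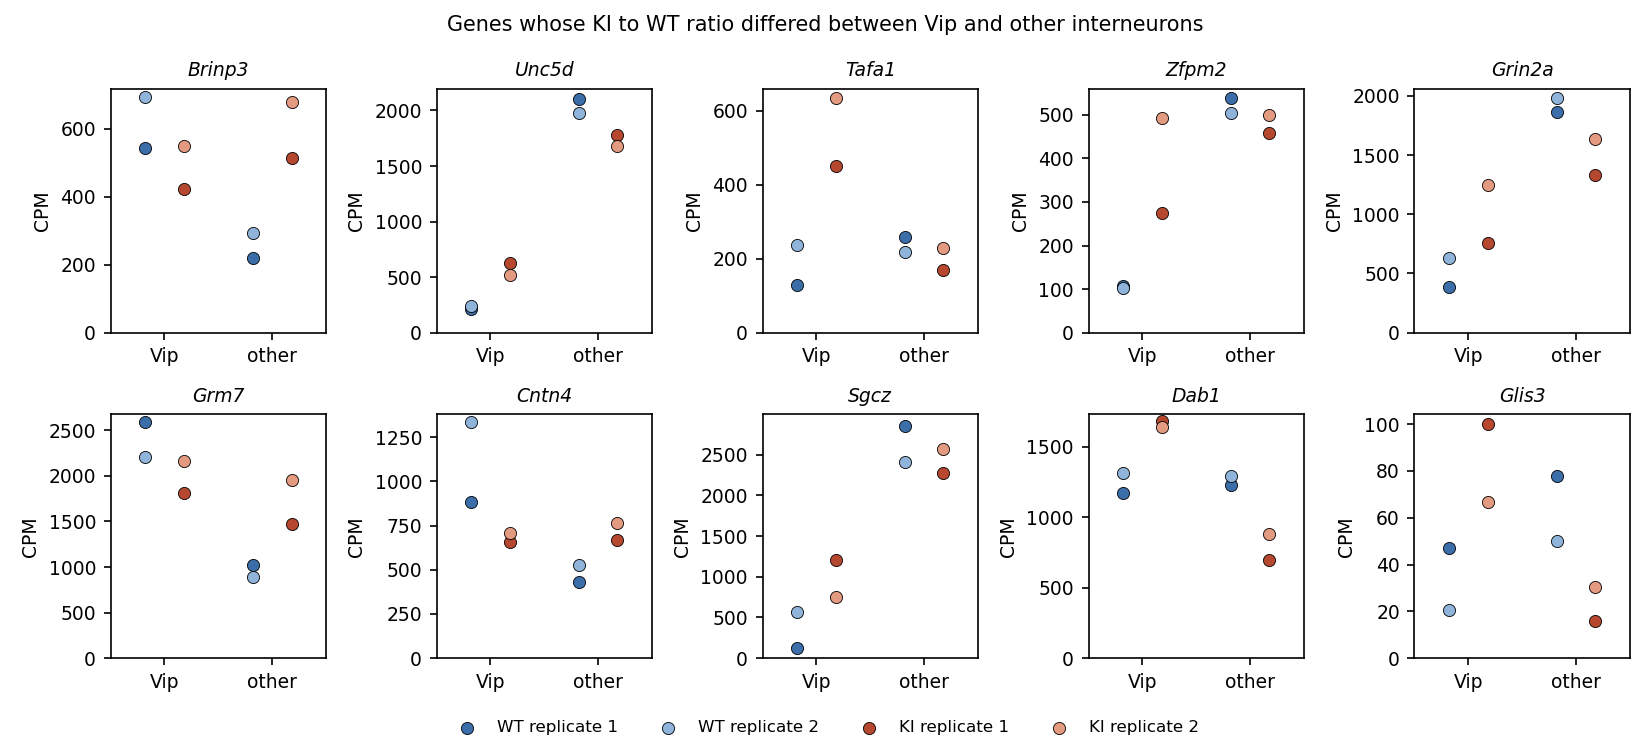
CPM per library (points, linear axes from 0) of the 10 genes whose KI over WT ratio differed between Vip interneurons and other interneurons, by class and genotype. For Brinp3 and Grm7 the genotypes lie further apart in the other interneurons, and for Unc5d and Zfpm2 in the Vip interneurons.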

How the data were processed

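Single-nucleus 3' libraries of 4 hippocampi were analysed from the filtered UMI counts that the authors deposited, made with Cell Ranger 7.0.1 (file header) on mm10 (submitters' processing notes). Use of intronic reads, annotation and strand are not given in the sources used here. The members and gene lists were chosen with earlier results of these data known. Nuclei were gated by the rule in Python 3.11.15, and doublets were scored with Scrublet (scanpy 1.11.5) but kept, except in an alternative. Counts were summed per library and class and tested with edgeR 4.0.16 (quasi-likelihood, TMM, filterByExpr, Benjamini-Hochberg at 0.05), which was checked on simulated counts. The class comparison and the class-by-genotype term had library as a term, and genotype within Vip interneurons had none. The study tested single nuclei with MAST, whereas here the mouse is the replicate. Shares were compared by exact two-sided permutation tests with Clopper-Pearson intervals. Thinning drew 3000 UMIs per nucleus, leaving out shallower ones. Summed depth was 84631 to 290290 UMIs per library, which limits the genotype test to 2014 of 32285 genes. Intervals and limits of 3 UMIs cover counting error only.

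Named genes were those past the threshold with the largest fold, up to 15 higher and 10 lower at 20 CPM or more between classes, up to 5 per direction at 10 CPM for the class-by-genotype term, and otherwise up to 5 per direction with the smallest p, as values only. List members could also be named, and a few of them are counted but not reported here. Alternatives were DESeq2 1.42.0, total-count scaling, a filter of 1 count, thinning, a replicate block, other gates and leaving out each library. No column of another sample was found.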

Additional observations from a re-analysis of the deposited data

Results flagged for a closer look

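The genotype effect differed between Vip and other interneurons in 10 genes by edgeR's class-by-genotype term, each with the KI over WT log2 ratio of the Vip interneurons minus that of the others. The difference was positive for Glis3 (2.94), Zfpm2 (1.91), Tafa1 (1.79), Sgcz (1.62), Unc5d (1.58), Grin2a (1.31) and Dab1 (1.11). It was negative for Brinp3 (−1.57), Cntn4 (−1.27) and Grm7 (−1.11). With DESeq2 none of the 10 passed (adjusted p = 1.0 for each). When every class needed at least 3 UMIs of its marker, which left 58, 52, 60 and 58 other interneurons, Zfpm2 and Cntn4 were the 2 of the 10 that still passed.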

How the results depend on the processing

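For genotype in Vip interneurons, the count of 0 became 17 when genes with at least 1 count were kept and 7 to 34 with 1 library left out, where 1 arm has a single library. It was 0 with DESeq2, with thinning and with the replicate block. For the class-by-genotype term, the count of 10 became 0 with DESeq2, 6 with at least 3 UMIs of the marker in every class, 25 with 1 Gad UMI in every class and 4 to 19 with 1 library left out. The replicate block gave 21 calls, which held all 10. Deviations of libraries with the same replicate number had a correlation of 0.0026, over sums of few nuclei with much counting noise. That value cannot decide whether replicate numbers pair the mice, and the block is only an alternative fit. For Vip against other interneurons, the count of 603 became 324 with DESeq2, 984 with 1 Gad UMI and 328 to 429 with 1 library left out, and 407 of 7851 genes tested with no block, that is, without library as a term. The share of all nuclei had a log2 ratio of 0.09 to 1.44 with 1 library left out. The share of gated interneurons ranged from −0.12 to 1.06, turning sign without KI replicate 1. The thinned Calb2 share (−0.30) ranged from −0.64 to 0.02, turning sign without WT replicate 2. The thinned Cck share (−0.27) ranged from −0.81 to 0.60, turning sign without WT replicate 1. Pex5l was −0.24 with 1 Gad UMI. The cause was not tested. Of 85 list genes called between classes, 74 kept their direction in every fit and 34 their call.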
